A study of Homo sapiens with 18 samples.

Results

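The genes described here are 5 butyrophilins (BTN2A1, BTN2A2, BTN3A1, BTN3A2 and BTN3A3), CD274, which encodes PD-L1, and CMTM4 and CMTM6, which encode regulators of PD-L1. They are 8 of the 60675 genes listed in each of 18 RNA Seq libraries. The set was chosen by name, with the knowledge that BTN3A2 and CMTM6 were higher after knockdown in C4-2. Values of that contrast are therefore given as a description, without a test. The libraries came from LNCaP, human prostate cancer cells that need androgen to grow, and from C4-2, a castration-resistant line derived from them, so both lines go back to the same tumour. In each line, 3 libraries came from cells with non-targeting scrambled siRNA (siScr) and vehicle, 3 from siScr cells with R1881, and 3 from cells given siRNA pools against both KDM1A and KDM7A together with R1881 (dual knockdown). R1881, a synthetic androgen, was used at 1 nM for 72 h. All groups were transfected in medium with hormone-depleted serum, and no group had the dual knockdown without R1881. KDM1A and KDM7A are histone lysine demethylases. The labels name the C4-2 vehicle libraries as C4-2 in their titles and as LNCaP in their cell line field, and the titles were followed.

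Butyrophilins are cell-surface proteins of the immunoglobulin superfamily, related to the B7 ligands that tune T cell responses. BTN3A1 binds phosphoantigens, small isoprenoid precursors such as those of the mevalonate pathway, through its intracellular domain, and with BTN2A1 it presents this state to γδ T cells of the blood. BTN3A2 and BTN3A3 are close relatives of BTN3A1, and BTN2A2 is known to restrain T cells. PD-L1 binds PD-1 on T cells and dampens their response. CMTM6 and, with overlapping function, CMTM4 are membrane proteins that bind PD-L1 and protect it from degradation. The transcription of CD274 is induced by interferon gamma, and that of the butyrophilins in part by the MHC-type factor NLRC5.

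The 5 butyrophilin genes lie on the plus strand of chromosome 6 of GRCh38 in a cluster. In order they are BTN3A2 (ENSG00000186470, 26365159 to 26378320), BTN2A2 (ENSG00000124508, 26383096 to 26394874), BTN3A1 (ENSG00000026950, 26402237 to 26415216), BTN3A3 (ENSG00000111801, 26440472 to 26453415) and BTN2A1 (ENSG00000112763, 26457904 to 26476621). CD274 (ENSG00000120217) lies on the plus strand of chromosome 9 from 5450503 to 5470566. CMTM6 (ENSG00000091317) lies on the minus strand of chromosome 3 from 32481312 to 32503408, and CMTM4 (ENSG00000183723) on the minus strand of chromosome 16 from 66614750 to 66696707. All 8 are protein coding. Reads were counted without regard to strand, and 324 exon bases of CMTM6, 7.34% of its exons, overlap CMTM7 on the opposite strand. The other 7 genes shared no exon base with another gene. The BTN3A genes are similar to each other, and 1.46% to 1.53% of their 150-base stretches occur in another BTN3A gene. Read pairs that mapped to several places were left out by the counter's default.

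RefSeq promoters (GRCh38.p14) were at hand for 6 of the 8 genes, in 7 windows. The 250 bases before the start are printed for BTN3A2 and BTN3A3, whose levels moved together in these libraries, and for CD274, the gene of PD-L1. Each reads 5′ to 3′ on the plus strand. Capitals mark matches, on either strand, to 3 motifs: GAAA followed by any 2 bases and GAAA again (interferon response type), TTC followed by any 3 bases and GAA (gamma activated type), and CCAAT (the CCAAT box). No match of 1 motif overlapped one of another. The letters AGAACA (androgen receptor type) were also searched, on either strand. They matched in 0 of the 7 windows and in 12.4% of all 35116 promoter windows of this length.
BTN3A2 chr6:26364948-26365197: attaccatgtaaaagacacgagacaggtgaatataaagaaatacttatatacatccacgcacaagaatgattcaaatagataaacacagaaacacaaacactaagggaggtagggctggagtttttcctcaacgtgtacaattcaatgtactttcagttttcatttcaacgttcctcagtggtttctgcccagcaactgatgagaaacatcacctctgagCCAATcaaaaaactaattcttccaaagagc
BTN3A3 chr6:26440254-26440503: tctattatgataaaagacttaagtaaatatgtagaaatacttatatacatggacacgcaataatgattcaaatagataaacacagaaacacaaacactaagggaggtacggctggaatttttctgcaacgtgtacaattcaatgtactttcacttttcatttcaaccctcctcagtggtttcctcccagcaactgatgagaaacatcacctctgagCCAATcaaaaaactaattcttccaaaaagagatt
CD274 chr9:5450292-5450541: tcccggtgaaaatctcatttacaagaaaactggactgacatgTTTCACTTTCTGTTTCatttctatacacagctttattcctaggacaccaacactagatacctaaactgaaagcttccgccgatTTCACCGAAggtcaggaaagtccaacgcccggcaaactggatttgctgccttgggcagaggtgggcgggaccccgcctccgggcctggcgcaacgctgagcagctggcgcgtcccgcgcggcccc
The BTN3A2 and BTN3A3 windows were 86.7% identical when aligned (221 identical bases in 255 aligned columns), and the BTN2A1 window was 49.0% and 50.8% identical to them. The printed BTN3A2 and BTN3A3 windows each held 1 CCAAT and the BTN2A1 window held 2, on opposite strands. Another BTN3A2 window, from 26367928 to 26368177, held no match to the motifs and was neither printed nor aligned. The CCAAT letters occurred in 32.0% of all 35116 promoter windows of this length. CD274 held 2 overlapping interferon response type matches, which occurred in 3.02% of all windows, and 1 gamma activated type match, which occurred in 6.57%. A match to these letters is a description of the sequence and not evidence of binding.

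Total counts per library ranged from 3182604 to 20154243 (median 18117641). The smallest library was C4-2 siScr vehicle replicate 3, and the next smallest held 10485096 counts. That library and dual knockdown replicate 1 of C4-2 stood apart from their replicates, with a chi-square per gene of 18.3 to 18.6 and 15.3 to 17.4 against 5.41 and 3.57 between the other libraries of their groups. Levels are given as CPM, counts scaled to a common library total with edgeR's TMM factors. KDM1A fell from 108 ± 4.44 to 51.5 ± 2.86 CPM (SD, n = 3) under dual knockdown in LNCaP and from 142 ± 3.22 to 16.4 ± 3.03 CPM in C4-2. KDM7A fell from 59.7 ± 5.01 to 30.8 ± 2.93 CPM in LNCaP and from 120 ± 10.0 to 21.2 ± 2.88 CPM in C4-2. The knockdown left more of both transcripts in LNCaP than in C4-2, with log2 differences between the lines of −2.04 for KDM1A and −1.56 for KDM7A (adjusted p = 2.36e-09 and 6.06e-07, interaction in edgeR). This stands beside each comparison of the knockdown between the lines. All 10 prostate luminal markers, KLK3 among them, were above 1 CPM in every group. Of 11 T and NK cell markers, CD2 and CD3D were at 0 counts in every group. The 11 summed to 1.66 to 2.47 CPM in LNCaP with vehicle, 29.3 to 36.0 CPM with R1881 and 24.0 to 27.6 CPM under dual knockdown, and to 1.75 to 4.34, 7.09 to 8.18 and 2.86 to 4.27 CPM in C4-2. With R1881 most of this was TRGC1, a transcript also known from prostate epithelium (30.7 CPM in LNCaP, 7.21 CPM in C4-2), and in C4-2 with vehicle it was PTPRC (2.43 CPM, 0.0798 CPM with R1881). The 8 macrophage and dendritic cell markers summed to 0.110 to 3.02 CPM per library, and the 8 fibroblast and endothelial markers to 23.3 to 45.5 CPM, mainly COL1A1 and VWF. Their part in the results was not tested.

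The 3 BTN3A genes had the same order of groups in C4-2, and their group means lay closer together in LNCaP. BTN3A2 was at 9.20, 9.21 and 11.1 CPM in the C4-2 siScr vehicle libraries, at 3.73, 3.82 and 3.79 CPM with R1881, and at 20.1, 20.4 and 19.0 CPM under dual knockdown. BTN3A3 was at 4.50, 7.32 and 4.65 CPM with vehicle, at 2.58, 2.19 and 2.69 CPM with R1881, and at 13.2, 11.5 and 10.1 CPM under dual knockdown. BTN3A1 was at 3.98, 4.46 and 3.20 CPM with vehicle, at 2.80, 2.64 and 1.89 CPM with R1881, and at 7.48, 8.38 and 7.84 CPM under dual knockdown. For each of the 3 genes in C4-2, the R1881 libraries were the lowest, the dual knockdown libraries the highest, and no groups overlapped. In LNCaP, BTN3A2 was at 15.6, 15.6 and 13.8 CPM with vehicle, at 16.3, 18.4 and 20.5 CPM with R1881, and at 23.6, 22.7 and 21.1 CPM under dual knockdown. BTN3A3 ranged from 15.2 to 18.9 CPM with vehicle, from 18.7 to 22.4 CPM with R1881 and from 20.1 to 25.6 CPM under dual knockdown. BTN3A1 ranged from 13.4 to 15.7, from 15.1 to 19.6 and from 20.5 to 22.4 CPM in the same groups. The LNCaP libraries thus lay in order of vehicle, R1881 and dual knockdown by their means, and vehicle overlapped R1881 for BTN3A1 and BTN3A3, as R1881 did dual knockdown for BTN3A3. These are bulk samples, in which fewer cells with a transcript and less of it per cell cannot be told apart.

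**Figure D1:**
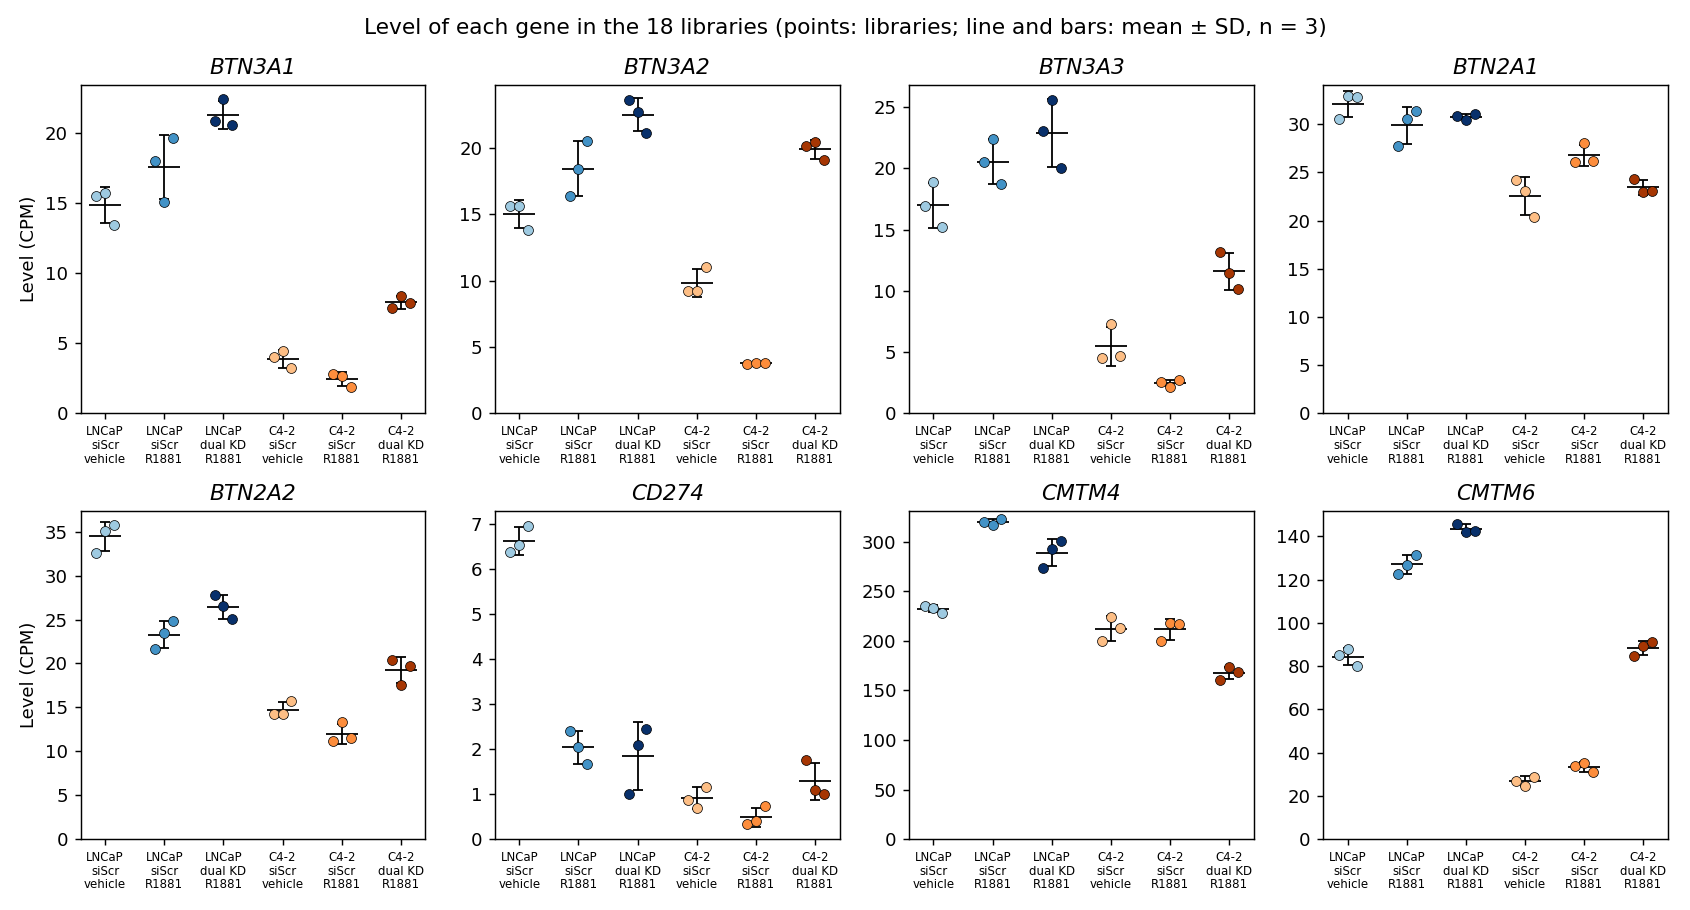
Level in CPM (vertical axes, from 0) of each of the 8 genes in the 18 libraries, by group (horizontal axes). Points are libraries, and the line with bars is the mean ± SD of 3. In C4-2 the BTN3A2 means were 9.82, 3.78 and 19.9 CPM and the CMTM6 means 26.7, 33.3 and 88.3 CPM for siScr vehicle, siScr R1881 and dual knockdown. In LNCaP, CD274 fell from 6.62 to 2.04 CPM with R1881.

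CMTM6 and CD274 were both higher under dual knockdown in C4-2, at levels that differed widely. CMTM6 was at 27.1, 24.4 and 28.8 CPM in the C4-2 vehicle libraries, at 33.6, 35.4 and 30.9 CPM with R1881, and at 84.8, 89.2 and 91.0 CPM under dual knockdown. In LNCaP it was at 84.9, 88.0 and 80.0 CPM with vehicle, at 123, 127 and 131 CPM with R1881, and at 146, 142 and 143 CPM under dual knockdown. The dual knockdown level of C4-2 was thus near that of LNCaP with vehicle. CD274 was at 6.38, 6.53 and 6.97 CPM in LNCaP with vehicle, at 2.40, 2.05 and 1.66 CPM with R1881, and at 1.01, 2.08 and 2.45 CPM under dual knockdown. In C4-2 it was at 0.879, 0.686 and 1.16 CPM with vehicle, at 0.329, 0.393 and 0.733 CPM with R1881, and at 1.76, 1.10 and 0.996 CPM under dual knockdown. These C4-2 levels rest on 17, 12 and 4 counts, on 6, 7 and 12 counts, and on 33, 20 and 16 counts per library, so CD274 is the least precise of the 8 genes.

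The remaining 3 genes were CMTM4, BTN2A2 and BTN2A1. CMTM4 ranged from 228 to 236 CPM in LNCaP with vehicle, from 317 to 323 CPM with R1881 and from 274 to 301 CPM under dual knockdown. In C4-2 it ranged from 199 to 225, from 200 to 218 and from 161 to 174 CPM. The CMTM4 dual knockdown libraries were the lowest of C4-2. BTN2A2 was at 32.6 to 35.8 CPM in LNCaP with vehicle, at 21.6 to 24.8 CPM with R1881 and at 25.0 to 27.8 CPM under dual knockdown. In C4-2, BTN2A2 was at 14.2 to 15.7, 11.1 to 13.3 and 17.5 to 20.4 CPM. BTN2A1 stayed between 27.7 and 32.9 CPM over the 9 LNCaP libraries and between 20.4 and 28.1 CPM over those of C4-2.

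Between genes, levels were compared per length, as CPM per kb of exon. CMTM4 was highest in every group by its mean, at 20.7 to 39.4 CPM per kb. CMTM6 followed at 6.06 to 32.5, BTN2A1 at 5.96 to 8.48 and BTN2A2 at 1.87 to 5.39 CPM per kb. The BTN3A genes were at 0.439 to 4.05 CPM per kb, and CD274 was lowest in every group, at 0.118 to 1.61 CPM per kb. Neighbours in this order overlapped in some groups. CMTM6 overlapped BTN2A1 in C4-2 with vehicle and with R1881, where they were at 5.96 to 7.54 CPM per kb, and overlapped CMTM4 in C4-2 under dual knockdown, at 20.02 and 20.66 CPM per kb. Among the BTN3A genes, BTN3A2 was the lowest by its mean in each LNCaP group and the highest in each C4-2 group. BTN2A2 overlapped BTN3A3 in LNCaP with R1881 and under dual knockdown, and BTN3A2 in C4-2 under dual knockdown.

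**Figure D2:**
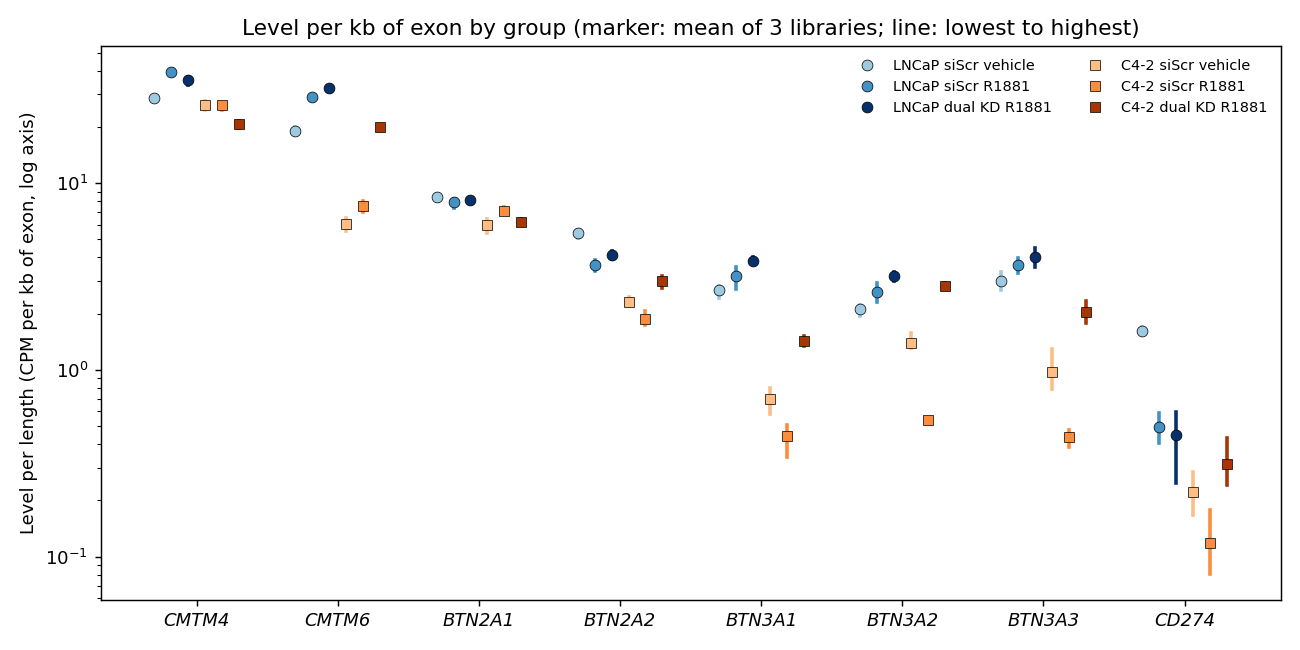
Level per kb of exon (CPM per kb, log axis) of the 8 genes in each of 6 groups. Markers are means of 3 libraries and lines run from the lowest to the highest library. CMTM4 stayed between 20.7 and 39.4 CPM per kb, while CMTM6 was at 7.54 CPM per kb in C4-2 with R1881 and at 20.02 under dual knockdown, and CD274 was the lowest gene in each group.

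Dual knockdown against siScr, both with R1881, compares transcript levels after siRNA against the 2 demethylases with those of control cells. In C4-2 the largest differences among the 8 genes were in the BTN3A genes. BTN3A2 was 5.23-fold higher (log2 fold change 2.39, SE 0.12), BTN3A3 was 4.64-fold higher (2.21, SE 0.20) and BTN3A1 was 3.21-fold higher (1.68, SE 0.19). CMTM6 was 2.64-fold higher (1.40, SE 0.090) and CD274 also 2.64-fold, with a wider error (1.40, SE 0.40). BTN2A2 was 1.60-fold higher (0.67, SE 0.11). CMTM4 was at 0.790 of its siScr level (−0.34, SE 0.077) and BTN2A1 at 0.872 (−0.20, SE 0.093). All 8 genes had libraries that did not overlap between the groups, 6 higher and 2 lower. Over all 16965 genes tested, 40.5% did not overlap, 21.2% higher and 19.2% lower. The median of the 8 log2 fold changes was 1.40, beside 0.0055 over all genes. The rule that chose the genes used this contrast, so these values carry no test. Without dual knockdown replicate 1, the log2 fold change was 2.38 for BTN3A2, 2.12 for BTN3A3, 1.72 for BTN3A1, 1.44 for CMTM6, 1.11 for CD274, 0.64 for BTN2A2, −0.31 for CMTM4 and −0.22 for BTN2A1.

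In LNCaP, the same comparison gave smaller differences. It uses none of the libraries behind the rule, but the genes were chosen with earlier results of these data known. BTN3A2 rose from 18.4 ± 2.10 to 22.5 ± 1.25 CPM (log2 fold change 0.30, SE 0.098, adjusted p = 0.0484, edgeR's quasi-likelihood test). CMTM6 rose from 127 ± 4.27 to 143 ± 2.08 CPM (0.19, SE 0.059, adjusted p = 0.0362). These 2 of 8 genes passed, both higher, where 14.2% of 17162 genes passed and 8.27% of the 17162 were higher. Without single libraries, 839 to 2760 genes passed in place of 2431. Both calls were close to the threshold. The adjusted p of BTN3A2 ranged from 0.0182 to 0.176 over 15 other settings, and the call was lost without siScr R1881 replicate 1 (adjusted p = 0.147) or 2 (0.133) and without dual knockdown replicate 1 (0.176), 2 (0.149) or 3 (0.0633). For CMTM6 it was lost without any 1 of the 6 libraries (adjusted p = 0.077 to 0.136). BTN3A1 was at 17.5 ± 2.31 and 21.2 ± 0.982 CPM (0.29, adjusted p = 0.0756), and BTN2A2 at 23.3 ± 1.58 and 26.4 ± 1.38 CPM (0.20, adjusted p = 0.108). CMTM4 had a log2 fold change of −0.13 (adjusted p = 0.121), BTN3A3 of 0.18 (adjusted p = 0.2998), BTN2A1 of 0.06 (adjusted p = 0.627) and CD274 of −0.11 (adjusted p = 0.840). For CD274 the approximate 95% interval ran from −0.63 to 0.42. BTN3A1, BTN3A2, BTN2A2 and CMTM6 had dual knockdown libraries all above the siScr libraries, and those of CMTM4 were all below. Over all genes, 16.0% lay all above and 18.5% all below. For a single gene of 3 libraries against 3, the 2-sided exact permutation test cannot go below p = 0.1.

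Set side by side, the knockdown fold change was larger in C4-2 for 5 of the 8 genes by more than 1 on the log2 scale. The difference, C4-2 minus LNCaP, was 2.11 for BTN3A2 (SE 0.15), 2.07 for BTN3A3 (SE 0.23), 1.54 for CD274 (SE 0.48), 1.41 for BTN3A1 (SE 0.20) and 1.23 for CMTM6 (SE 0.094). It was 0.50 for BTN2A2, −0.19 for CMTM4 and −0.24 for BTN2A1. These values use the contrast behind the rule and were not tested for the 8 genes. Over all 18684 genes tested, this difference passed for 10.9%, and 1.26% passed with a difference above 1. The number that passed, 2028, was 3538 without dual knockdown replicate 1 of C4-2 and 1272 to 1875 without any other library. Without that replicate the difference was 2.11 for BTN3A2, 1.97 for BTN3A3, 1.46 for BTN3A1, 1.27 for CMTM6 and 1.26 for CD274.

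**Figure D3:**
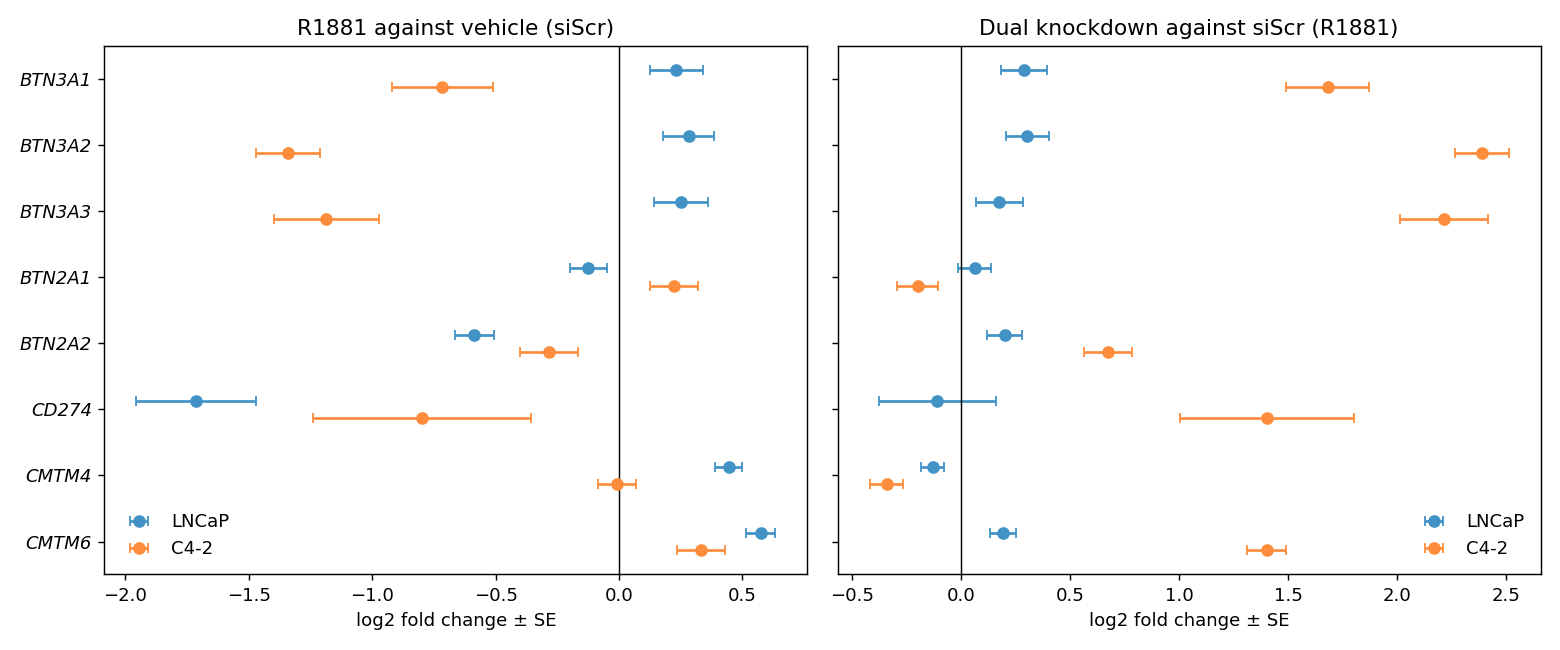
Log2 fold change ± SE (horizontal axes) of the 8 genes for R1881 against vehicle (left) and dual knockdown against siScr (right), in LNCaP (blue) and C4-2 (orange). With R1881, BTN3A1, BTN3A2 and BTN3A3 lay at −0.72, −1.34 and −1.19 in C4-2 and at 0.23, 0.28 and 0.25 in LNCaP. Under dual knockdown they lay at 1.68, 2.39 and 2.21 in C4-2.

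R1881 against vehicle in siScr cells asks how androgen alone changed these genes. In LNCaP, 5 of 8 passed, where 46.6% of all genes did. CMTM6 rose from 84.3 ± 4.05 to 127 CPM (log2 fold change 0.57, SE 0.060, adjusted p = 5.34e-07), CMTM4 from 232 ± 3.77 to 320 ± 3.20 CPM (0.44, SE 0.054, adjusted p = 3.35e-06) and BTN3A2 from 15 ± 1.07 to 18.4 CPM (0.28, SE 0.10, adjusted p = 0.0320). Among all genes, 23.5% were higher and 23.2% lower. CD274 fell 3.28-fold, from 6.62 ± 0.305 to 2.04 ± 0.370 CPM (−1.71, SE 0.24, adjusted p = 1.92e-05), 1 of 8 genes past a 2-fold change downward, as were 6.62% of all genes. BTN2A2 fell from 34.5 ± 1.67 to 23.3 CPM (−0.59, SE 0.080, adjusted p = 1.34e-05). BTN3A3 (0.25, adjusted p = 0.0712), BTN3A1 (0.23, adjusted p = 0.0899) and BTN2A1 (−0.12, adjusted p = 0.184) did not pass. The R1881 libraries of BTN3A2, CMTM4 and CMTM6 all lay above the vehicle libraries, as for 27.2% of all genes, and those of BTN2A2 and CD274 all lay below, as for 25.8%. The calls of the BTN3A genes turned on single libraries. BTN3A2 did not pass without vehicle replicate 3 (adjusted p = 0.124) or R1881 replicate 3 (0.154), nor with counts thinned to the smallest library (0.14, adjusted p = 0.322) or only the groups compared (adjusted p = 0.0575). In contrast, BTN3A1 passed without R1881 replicate 2 (0.0151), and BTN3A3 passed without vehicle replicate 2 (0.0247) or R1881 replicate 3 (0.0448). This comparison shares its siScr R1881 libraries with that of the knockdown in LNCaP.

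In C4-2, R1881 lowered BTN3A genes. BTN3A3 fell 2.27-fold, from 5.49 ± 1.59 to 2.49 ± 0.263 CPM (log2 fold change −1.19, SE 0.21, adjusted p = 6.48e-04), and BTN3A1 fell 1.64-fold, from 3.88 ± 0.636 to 2.44 ± 0.483 CPM (−0.72, SE 0.20, adjusted p = 0.0147). Without vehicle replicate 2 or R1881 replicate 3, BTN3A1 did not pass (−0.61 and −0.56, adjusted p = 0.0808 and 0.0739). These 2 were the ones that passed of 6 genes tested, both lower, where 32.8% of 16965 genes passed and 15.7% of the 16965 were lower. The R1881 libraries of BTN3A1, BTN3A2, BTN3A3 and BTN2A2 all lay below the vehicle libraries, as for 22.3% of all genes, and those of BTN2A1 and CMTM6 all lay above, as for 24.6%. Without vehicle replicate 3, the library that stood apart, BTN3A3 was at −1.24 (adjusted p = 2.62e-04) and BTN3A1 at −0.78 (adjusted p = 0.0071). BTN2A2 (−0.28, adjusted p = 0.0799), BTN2A1 (0.22, adjusted p = 0.0935), CD274 (−0.80, adjusted p = 0.188) and CMTM4 (−0.0083, adjusted p = 0.954) did not pass. The approximate 95% interval for CMTM4 ran from −0.16 to 0.14, and that for CD274 from −1.66 to 0.069. The R1881 libraries of this comparison are also those of the knockdown contrast behind the rule, so BTN3A2 and CMTM6 are given without a test. The tests of the other 6 genes share these libraries. Levels of BTN3A1 and BTN3A3 correlated with those of BTN3A2 (Pearson 0.86 and 0.92), so their tests are not independent of the rule. BTN3A2 was 2.53-fold lower (−1.34, SE 0.13) and CMTM6 1.26-fold higher (0.33, SE 0.096).

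The response to R1881 differed between the lines for 3 of the 6 genes tested as an interaction, where 14.0% of 18684 genes did. The difference, C4-2 minus LNCaP, was −1.47 for BTN3A3 (SE 0.24, adjusted p = 2.19e-04), −0.97 for BTN3A1 (SE 0.21, adjusted p = 0.00283) and −0.47 for CMTM4 (SE 0.086, adjusted p = 6.17e-04). All 3 were lower, as were 7.95% of all genes. It was 0.33 for BTN2A1 (adjusted p = 0.0542), 0.29 for BTN2A2 (adjusted p = 0.172) and 0.91 for CD274 (adjusted p = 0.274). Without a test, it was −1.63 for BTN3A2 (SE 0.16) and −0.25 for CMTM6 (SE 0.10). The 6 genes tested share the C4-2 R1881 libraries of the contrast behind the rule, so their tests are not independent of it.

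C4-2 had less of nearly all of these transcripts than LNCaP. With vehicle, 7 of 8 passed and all 7 were lower in C4-2, where 58.9% of all genes passed and 29.5% of all genes were lower. CD274 was 7.89-fold lower (log2 fold change −2.98, SE 0.33, adjusted p = 1.21e-07), BTN3A1 3.64-fold (−1.86, SE 0.15, adjusted p = 5.79e-10), CMTM6 3.20-fold (−1.68, SE 0.074, adjusted p = 3.54e-14) and BTN3A3 2.99-fold lower (−1.58, SE 0.17, adjusted p = 5.14e-08). BTN2A2 (−1.25, adjusted p = 4.06e-10), BTN3A2 (−0.65, adjusted p = 3.14e-05) and BTN2A1 (−0.48, adjusted p = 2.51e-05) were lower too. BTN3A2 did not pass with counts thinned to the smallest library (−0.44, adjusted p = 0.0752). CMTM4 did not pass (−0.13, adjusted p = 0.0713), though it did without C4-2 vehicle replicate 2 (−0.18, adjusted p = 0.0316). All C4-2 vehicle libraries lay below all those of LNCaP for the 8 genes, as for 32.0% of all genes. The line cannot be told apart from other differences between its cultures.

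With R1881, 5 of the 6 genes tested were lower in C4-2, where 58.3% of all genes passed and 29.7% were lower. BTN3A3 was 8.25-fold lower (−3.04, SE 0.17, adjusted p = 2.31e-12), BTN3A1 7.15-fold (−2.84, SE 0.15, adjusted p = 4.58e-13) and CD274 4.20-fold lower (−2.07, SE 0.36, adjusted p = 3.54e-05). BTN2A2 (−0.96, adjusted p = 1.59e-08) and CMTM4 (−0.60, adjusted p = 2.36e-08) were lower by less. BTN2A1 did not pass (−0.16, adjusted p = 0.0869), but passed without LNCaP siScr R1881 replicate 1 (−0.21, adjusted p = 0.0376). Described without a test, BTN3A2 was 4.87-fold lower and CMTM6 3.81-fold lower. The C4-2 libraries compared here are the controls of the contrast behind the rule, so the tests given are not independent of it.

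Many relatives of these genes were not tested under dual knockdown, and too few were to compare with the share of all genes. Among all genes, 23.5% passed in C4-2, 12.7% higher and 10.8% lower, beside 14.2% in LNCaP. The C4-2 number that passed, 3983, was 2482 without siScr R1881 replicate 3. Of 10 other butyrophilin and butyrophilin-like genes, 3 were tested. ERMAP, an erythroid member of the family, fell in C4-2 (from 9.11 to 5.91 CPM, log2 fold change −0.63, adjusted p = 0.00424), and the other 2 did not pass there. In LNCaP, edgeR passed 0 of the 3, with 0 at an unadjusted p under 0.05 and 0 by DESeq2. Of 8 other B7 ligands, 2 were tested in LNCaP and 3 in C4-2, and CD276, which encodes B7-H3, rose in both lines. It rose from 79.3 to 97.8 CPM in LNCaP (0.32, adjusted p = 0.0114) and from 65.3 to 87.6 CPM in C4-2 (0.42, adjusted p = 0.00559). In LNCaP the call was lost without siScr R1881 replicate 2 (adjusted p = 0.0647) or 3 (0.0556) or dual knockdown replicate 2 (0.0581), and the value was 0.066 (adjusted p = 0.447) with each library's trend with GC content removed. R1881 lowered CD276 in LNCaP by a log2 fold change of −0.48 (adjusted p = 4.93e-05). The change in C4-2 was −0.63 (adjusted p = 1.78e-04). Of 7 other CMTM genes, 5 were tested, and edgeR passed 0 under dual knockdown in either line, with 0 in LNCaP and 1 in C4-2 at an unadjusted p under 0.05 and 0 in both by DESeq2. CMTM8 rose with R1881 in C4-2, from 6.25 to 10.9 CPM (0.78, adjusted p = 0.00177), and was at 0.411 CPM in LNCaP with vehicle.

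Regulators of PD-L1 protein turnover and glycosylation changed in both directions. Of all genes, 14.2% passed under dual knockdown in LNCaP and 23.5% in C4-2. Of 15 such regulators, 14 were tested, and under dual knockdown 2 rose and 3 fell in LNCaP while 2 rose and 4 fell in C4-2. Their median log2 fold change was 0.023 in LNCaP and −0.076 in C4-2, beside 0.00098 and 0.0055 over all genes. CUL3, the scaffold of the ligase that can carry SPOP to PD-L1, fell in LNCaP (−0.36, adjusted p = 0.00257) and C4-2 (−0.36, adjusted p = 0.00391). CDK4, a cyclin-dependent kinase, rose in both lines, by 0.41 in LNCaP (adjusted p = 0.00289) and by 0.42 in C4-2 (adjusted p = 0.00661). GSK3B, a kinase known to mark PD-L1 for degradation, fell from 204 to 148 CPM in C4-2 (−0.47, adjusted p = 9.26e-04) and from 162 to 134 CPM in LNCaP (−0.26, adjusted p = 0.0118). MARCHF8, a membrane-bound ubiquitin ligase, rose in C4-2 from 22.4 to 34.5 CPM (0.62, adjusted p = 8.09e-04). STUB1 had the largest change of the list in LNCaP (0.51, adjusted p = 0.00609), lost with the GC trend removed (0.14, adjusted p = 0.176). With R1881, 1 rose and 4 fell in LNCaP, and 3 rose and 2 fell in C4-2. Of all genes, 46.6% passed with R1881 in LNCaP and 32.8% in C4-2.

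Among 16 interferon gamma pathway and MHC-type factors, 15 were tested. Of all genes, 14.2% passed under dual knockdown in LNCaP and 23.5% in C4-2. Of these factors, 1 rose and 1 fell in LNCaP and 2 rose and 2 fell in C4-2, with medians of −0.036 and 0.042. Those of LNCaP were RFXANK, a subunit of the factor RFX (0.31, adjusted p = 0.0183), and JAK2, an interferon receptor kinase (−0.27, adjusted p = 0.0408). Both were lost with the GC trend removed (0.056 and −0.15, adjusted p = 0.725 and 0.245). RFXANK was also lost without any 1 of 4 libraries (adjusted p = 0.0583 to 0.0809) and JAK2 without any 1 of 5 (0.0556 to 0.147). IRF1, an interferon-induced transcription factor that can activate CD274, rose in C4-2 from 2.56 to 3.92 CPM (0.61, adjusted p = 0.0189). In the same line, JAK2 fell from 20.9 to 15.5 CPM (−0.44, adjusted p = 0.0215) and IFNGR2 from 39.8 to 30.3 CPM (−0.40, adjusted p = 0.00461). The IRF1 call was lost without any 1 of the 3 siScr libraries or of dual knockdown replicates 1 and 2 (adjusted p = 0.0569 to 0.0675), and the JAK2 call without siScr R1881 replicate 2 (0.0603) or 3 (0.0948) and with thinned counts (−0.20, adjusted p = 0.501). R1881 lowered 2 of these factors by more than 2 on the log2 scale in C4-2. There, IRF1 fell from 17.5 ± 0.796 to 2.56 ± 0.0805 CPM (−2.77, SE 0.17, adjusted p = 1.08e-08) and NLRC5 from 6.61 ± 0.795 to 1.46 ± 0.213 CPM (−2.18, SE 0.24, adjusted p = 6.95e-06). Both fell more in C4-2 than in LNCaP, by −2.22 for IRF1 (adjusted p = 1.83e-06) and −1.40 for NLRC5 (adjusted p = 6.74e-04; 0.209 with counts thinned to the smallest library). With R1881, 32.8% of all genes passed in C4-2 and 46.6% in LNCaP. Over the list, 3 rose and 2 fell with R1881 in C4-2, and 4 rose and 5 fell in LNCaP. Their part in the levels of the butyrophilins was not tested.

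The mevalonate pathway, whose intermediates include the phosphoantigens that BTN3A1 binds, rose with R1881. All 10 genes passed higher in LNCaP, with a median log2 fold change of 1.08 beside −0.042 over all genes. In C4-2, 7 of 10 passed higher, with a median of 0.69. Of all genes, 23.5% passed higher in LNCaP and 2902 of 16965 did in C4-2. FDFT1, squalene synthase, rose from 248 to 1009 CPM in LNCaP (2.01, adjusted p = 1.28e-13). HMGCS1, a synthase at the head of the pathway, rose from 79.8 to 133 CPM in C4-2 (0.74, adjusted p = 2.42e-04). Under dual knockdown, 14.2% of all genes passed in LNCaP and 23.5% in C4-2. Of this pathway, 3 rose and 1 fell in LNCaP, and 1 rose and 1 fell in C4-2. The 3 were PMVK (0.38), MVD (0.35) and MVK (0.32), enzymes of the pathway, and all 3 calls were lost with the GC trend removed (0.16, 0.020 and 0.14, adjusted p = 0.199, 0.913 and 0.207). MVD and MVK were also lost without any 1 of 5 libraries (adjusted p = 0.0585 to 0.157), and PMVK without siScr R1881 replicate 2 (0.0687) or dual knockdown replicate 1 (0.0681). In C4-2, HMGCS1 rose from 133 to 265 CPM (0.99, adjusted p = 3.62e-05). A list of 7 genes held partners of the BTN3A proteins, handlers of phosphoantigens, NLRC5 and kinases of the AMPK pathway. Of them, 6 were tested in LNCaP and 7 in C4-2. Under dual knockdown 2 rose in LNCaP, and 1 rose and 1 fell in C4-2. RHOB, a small GTPase that binds BTN3A1, rose in LNCaP (0.35, adjusted p = 0.00824; 0.0542 without siScr R1881 replicate 3, and 0.19 with adjusted p = 0.0695 with the GC trend removed). The other was STK11, a kinase upstream of AMPK (0.37, adjusted p = 0.0259), lost without any 1 of 5 libraries (adjusted p = 0.0632 to 0.133) and with the GC trend removed (−0.023, adjusted p = 0.847). PRKAA1, a catalytic subunit of AMPK, rose in C4-2 from 152 to 235 CPM (0.62, adjusted p = 5.25e-04). ABCA1, a lipid transporter that can export isopentenyl pyrophosphate, fell with R1881 from 11.8 to 0.366 CPM in LNCaP (−4.93, adjusted p = 1.88e-09) and from 9.09 to 1.41 CPM in C4-2 (−2.65, adjusted p = 1.26e-06).

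Of the other genes in the chromosome 6 region, nearly all that fell under dual knockdown in C4-2 were histone genes. Within 200 kb of the cluster lay 40 other genes, of which 16 were tested in C4-2 and 15 in LNCaP, many of them replication-dependent histone genes with near-identical copies, whose counts are uncertain. Under dual knockdown in C4-2, 1 rose and 8 fell, with a median log2 fold change of −0.43. Those that fell were histone genes and 1 processed pseudogene. The gene that rose was HMGN4 (0.31, adjusted p = 0.0299). Of all genes, 10.8% fell. H2BC7, a histone gene, fell from 11.3 to 5.29 CPM (−1.10, adjusted p = 5.51e-05). In LNCaP 3 histone genes fell, and the median of the 15 tested was −0.13. Of all 17162 genes, 1011 fell there. With R1881, 5 rose in C4-2 (median 0.25), and 10 rose and 2 fell in LNCaP (median 0.53). Of all genes, 2902 of 16965 rose in C4-2, and 23.5% rose and 23.2% fell in LNCaP.

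Across the 18 libraries, levels of the BTN3A genes had a Pearson correlation of log2 CPM of 0.97 for BTN3A1 and BTN3A3, 0.92 for BTN3A2 and BTN3A3 and 0.86 for BTN3A1 and BTN3A2. The values were as high between families, with 0.93 for CMTM6 and BTN3A1, 0.90 for CMTM6 and BTN3A3 and 0.89 for BTN2A2 and BTN3A1. BTN3A2 and BTN2A1 had 0.26, and CMTM6 and CD274 had 0.52. These are descriptions, since the libraries of a line and of a group share their difference from the others. Among 14896 genes, those most like BTN3A2 were ERAP1 (0.94), an aminopeptidase that trims peptides for MHC class I, MLF2 (0.93) and GGCX (0.93), and BTN3A3 ranked 6. Those most like CMTM6 were CTNNB1 (0.99), which encodes β-catenin, SLC16A1 (0.99), a lactate transporter, and EVI5 (0.99). SLC16A1 was at 266, 308 and 406 CPM in the LNCaP groups and at 59.4, 66.9 and 229 CPM in those of C4-2, in the order vehicle, R1881 and dual knockdown.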

How the data were processed

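RNA Seq was carried out on 18 libraries of LNCaP and C4-2 cells, grouped by title. The authors made the deposited counts, which are raw whole numbers of read pairs per gene. The submitters' processing notes name Trim Galore, cutadapt, FastQC, STAR and featureCounts with GRCh38, and the file headers name Ensembl release 83, pair counting and no strand option. Read pairs that matched several places or genes were left out by the counter's default. Symbols came from a list of current gene names and, where it had no entry, from GENCODE (57055 of 60675 genes). Depth was 3182604 to 20154243 counts per library. Counting error alone does not cover the spread between replicates, whose chi-square per gene was 2.56 to 18.6 over 18 pairs. The labels do not say that replicates were separate cultures, and p-values then measure only the spread between these libraries.

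Counts were analysed in R 4.3.3 with edgeR 4.0.16 (TMM, filterByExpr with a minimum count of 10 and a minimum total of 15, quasi-likelihood F-test, 2-sided) and Benjamini-Hochberg adjustment over all genes. Comparisons within a line used a fit of its 9 libraries, and comparisons of the lines and interactions a fit of all 18. A gene passed with an adjusted p under 0.05. Approximate 95% intervals are the log2 fold change ± 1.96 SE. All 8 genes passed the filter in each fit. Tests were checked on simulated counts. DESeq2 1.42.0 served as an alternative. Tables and figures were made in Python 3.11.15 (scipy 1.17.1, pandas 2.3.3, matplotlib 3.10.9). The genes and lists were chosen with earlier results of these data known. From each list, up to 3 genes per comparison with the largest change among those that passed at a mean of at least 1 CPM could be named, together with KDM1A, KDM7A, up to 3 neighbours and the 3 genes most like BTN3A2 and CMTM6. A gene named in a comparison could also be given in others. SLC16A1's levels and the printed promoters were chosen after the values were seen. The lists were other butyrophilins, B7 ligands, CMTM genes, regulators of PD-L1 turnover, interferon gamma and MHC-type factors and the mevalonate pathway. Further lists were BTN3A partners with NLRC5 and AMPK pathway kinases, and markers of cell types. Promoters were taken from RefSeq and aligned end to end (match 1, mismatch −1, gap −2). Some members of the marker and pathway lists are not reported here by name.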

Additional observations from a re-analysis of the deposited data

Results flagged for a closer look

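The response to R1881 differed between C4-2 and LNCaP by the interaction test for 3 of the 6 genes tested, where 14.0% of 18684 genes did. All 3 were lower, as were 7.95% of all genes. The difference, C4-2 minus LNCaP on the log2 scale, was −1.47 for BTN3A3, −0.97 for BTN3A1 and −0.47 for CMTM4 (edgeR, adjusted p = 2.19e-04, 0.00283 and 6.17e-04). For BTN3A3, R1881 gave a log2 fold change of −1.19 in C4-2 and 0.25 in LNCaP, for BTN3A1 −0.72 and 0.23, and for CMTM4 −0.0083 and 0.44. The call of BTN3A1 was lost with counts thinned to the smallest library (−1.21, adjusted p = 0.0759). BTN3A2 moved in opposite directions, with every R1881 library below every vehicle library in C4-2 and above in LNCaP. Of all genes, 22.3% lay all below in C4-2 and 27.2% all above in LNCaP. The rise of BTN3A2 in LNCaP passed, but not in 4 of 15 other settings. Its response differed by −1.63 between the lines. That difference was not tested, because its C4-2 libraries are those by which the gene was chosen. The 3 tests above share the C4-2 R1881 libraries and are not independent of that choice.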

How the results depend on the processing

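The alternatives were RLE size factors, no filter on low counts, a minimum of 10 counts per library, the Wald test of DESeq2, the likelihood ratio test of edgeR, a fit of only the groups compared, the replicate number as a block, counts thinned to the smallest library, each library left out in turn and, chosen after seeing the data, removal of each library's trend with GC content. For dual knockdown in LNCaP, the 2 genes that passed became 0 with RLE size factors, with no filter and with the replicate block, and 1 with thinned counts, and were 0 to 1 with a library left out. For R1881 in C4-2, the 2 became 1 with thinned counts and 4 with the GC trend removed, and 1 to 2 with a library left out. The other counts stayed within 1.5 times of their value. The labels do not say whether replicate numbers pair the samples. Correlations of deviations in same-numbered libraries ran from −0.098 to 0.19 within a line and from −0.52 to 0.42 between the lines. With 3 libraries per group they cannot decide it, and the block is given for that reason here only. Some small differences changed sign. For CD274 under dual knockdown in LNCaP, the value was 0.046 without siScr R1881 replicate 1 and 0.16 without dual knockdown replicate 1, with a lowest of −0.36, without dual knockdown replicate 3. For CMTM4 with R1881 in C4-2, it was 0.020 with no filter, 0.033 without vehicle replicate 2 and 0.036 without R1881 replicate 1, with a lowest among left-out libraries of −0.057, without vehicle replicate 1, and −0.084 with the GC trend removed. For BTN2A1 between the lines with R1881 it was 0.021 with thinned counts, and for STK11 under dual knockdown in LNCaP −0.023 with the GC trend removed. Over all genes, dual knockdown in LNCaP passed 2431, but 1134 with the GC trend removed and 839 to 2760 with a library left out. The lowest were 839 without siScr R1881 replicate 2, 840 and 918 without dual knockdown replicates 2 and 1 and 957 without siScr R1881 replicate 3. The cause was not tested. Among the alternative values of the 8 genes, not counting the numbers that passed, 981 kept their direction and side of the threshold or moved little, 28 lost the threshold, 20 gained it, 13 moved further and 6 changed sign. Depth limits CD274 in C4-2 most, with 4 to 33 counts per library.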
